A study of Mus musculus with 6 samples.

Results

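Homologous recombination copies a broken DNA end back from the sister chromatid, and the Fanconi pathway opens a crosslink so that recombination can finish the repair. The gene set described here holds 41 mouse genes of both, chosen by symbol from a given list of genes with these roles. It covers the enzymes that trim a break, the BRCA mediators, the strand exchange genes, the Fanconi core and ID complexes, structure-selective nucleases and the checkpoint kinases that act on the same breaks. All 41 were found among the 17254 genes seen in any library, and all 41 passed the filter on low values that left 11717 genes for testing.

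The libraries are bulk RNA-seq of cultured mouse neural stem and progenitor cells after 48 h without treatment (control), with paraquat (PQ) or with N-acetylcysteine (NAC), 2 libraries each. PQ is a herbicide that makes superoxide by redox cycling, and NAC is a thiol that feeds glutathione synthesis. The study's methods describe an immortalized neonatal culture of mixed cells, so changes in the make-up of the culture and changes within a cell are read together. Control 1 and PQ 1 are labelled as C57BL/6 NPCs with genotype Ink/Ark knockout, where the study's methods write Ink/Arf, with 5 µM paraquat in PQ 1, grown in N2 medium with EGF and bFGF. Control 2, PQ 2, NAC 1 and NAC 2 are labelled neural progenitor cells, with no genotype, strain or dose.

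The labels also name a pair of protocols. Control 1 and PQ 1 carry a column kit and an Illumina instrument, and the other 4 libraries carry TRIZOL and BGISEQ-500. Control and PQ are therefore split evenly across the labelled protocol, while both NAC libraries carry the same one, which control 2 and PQ 2 share. Library totals ran from 9680436 expected counts in PQ 2 to 10698241 in NAC 1. Replicates within a group correlated at 0.987 in control, 0.990 in PQ and 0.991 in NAC on log2(FPKM + 1). Nothing in the labels says that the libraries came from separate cultures, so the p-values below measure only the spread between these libraries.

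Recombination needs a sister chromatid, and most of its genes are therefore transcribed mainly in S and G2 phase, under E2F and the factors that follow it. Progenitors of the brain divide fast and lean on this pathway during growth, and inherited loss of Fanconi or NBN function reduces brain size. Superoxide and the oxidants that follow from it break and modify DNA. Whether the level of these transcripts limited repair under PQ was not tested.

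Markers matched the labelled cell type. The 8 progenitor markers summed to 3335 and 3411 FPKM in control, 3704 and 3759 in PQ and 2599 and 2519.6 in NAC, led by Vim. Oligodendrocyte lineage markers, led by Olig1, summed to 652 and 753 FPKM in control, 768 and 666 in PQ and 816 and 926 in NAC. Astrocyte markers, led by Slc1a3, summed to 114 and 100.45, 82.6 and 84.4, and 141 and 141. Neuron markers, led by Map2, reached 38.2 and 35.9, 33.7 and 34.9, and 65.3 and 58.6. Map2 alone gave 64.9 FPKM in NAC 1, while Stmn2 and Rbfox3 had at most 3 counts in every library. Microglial, endothelial and fibroblast markers summed to at most 4.50 FPKM in any library, with Aif1, Csf1r, Ptprc, Tmem119, Cdh5, Kdr, Cldn5, Lum and Pdgfrb at 3 counts or fewer in each. In NAC, 4 of 6 astrocyte and 3 of 4 tested oligodendrocyte lineage markers were called higher than control, beside 9.01% of all genes tested. Aldh1l1 was lower in NAC at -0.49 (adjusted p = 0.31), which did not pass. Its normalized counts were 35.6 and 42.7 in control and 34.6 and 21.0 in NAC. Cspg4, not tested, was lower too, with 76.5 and 76.3 in control and 54.2 and 60.9 in NAC. Mbp, not tested, had means of 6.15 in control and 4.30 in NAC. Map2, the only neuron marker tested, was higher at 0.77 (adjusted p = 1.1e-05). Tubb3 and Syt1, which were not tested, went the other way in NAC. Tubb3 had normalized counts of 43.0 and 23.4 in control, 12.5 and 8.41 in PQ and 5.61 and 7.99 in NAC. Syt1 had 8.38 and 11.2, 12.5 and 12.6, and 2.80 and 4.99. The microglial marker P2ry12 was higher in NAC than in control at 1.18 (adjusted p = 0.0033). In PQ, 1 of 6 astrocyte markers was higher than control, Aldh1l1 at 1.17 (adjusted p = 0.0035), and 1 was lower, Slc1a3 at -0.48 (adjusted p = 0.0016). Progenitor and glial lineage transcripts thus led among the markers, with few of microglial, endothelial or fibroblast kind.

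The members were moderately expressed. Their control means had a median of 7.62 FPKM, beside 12.5 over all genes tested. Usp1, the deubiquitinase that resets the ID complex, was the highest member at 79.8 and 69.2 FPKM in control, and Rbbp8 (CtIP) came next at a mean of 26.2. Fancc, a core complex subunit, was the lowest at 2.74 and 2.69 FPKM. Summed over the 41 members, FPKM was 457 and 446 in control, 328 and 334 in PQ and 489 and 464 in NAC. Both PQ sums lay below the other 4.

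Members were lower in PQ. By edgeR, 22 of 41 members were lower in PQ than in control at adjusted p under 0.05 and 0 were higher, beside 9.45% lower and 9.76% higher over all 11717 genes. At unadjusted p under 0.05 the counts were 25 lower and 0 higher. DESeq2 called 20 lower and 0 higher, beside 849 and 824 of all 11717 genes. Limma on log2(FPKM + 1) called 18 lower and 0 higher, beside 725 and 980. The median log2 fold change of the members was -0.47, with quartiles at -0.65 and -0.22, against -0.0013 over all genes tested. In 36 of 41 members both PQ libraries lay below both controls, which held for 28.7% of all genes. Within each labelled protocol, 37 of 41 members were lower in PQ than in the control of that protocol in both pairs, beside 33.0% of all genes, with medians of -0.40 for PQ 1 minus control 1 and -0.49 for PQ 2 minus control 2. With 1 library left out, fewer members passed in each case, fewest without PQ 1. The number of all genes called lower was also smaller in each of those fits, and smallest without PQ 1. Leaving out a PQ or control library leaves a single library in that group, so the spread then comes from the other groups. Fewer cycling cells and less of these RNAs per cell cannot be told apart in bulk RNA.

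**Figure D1:**
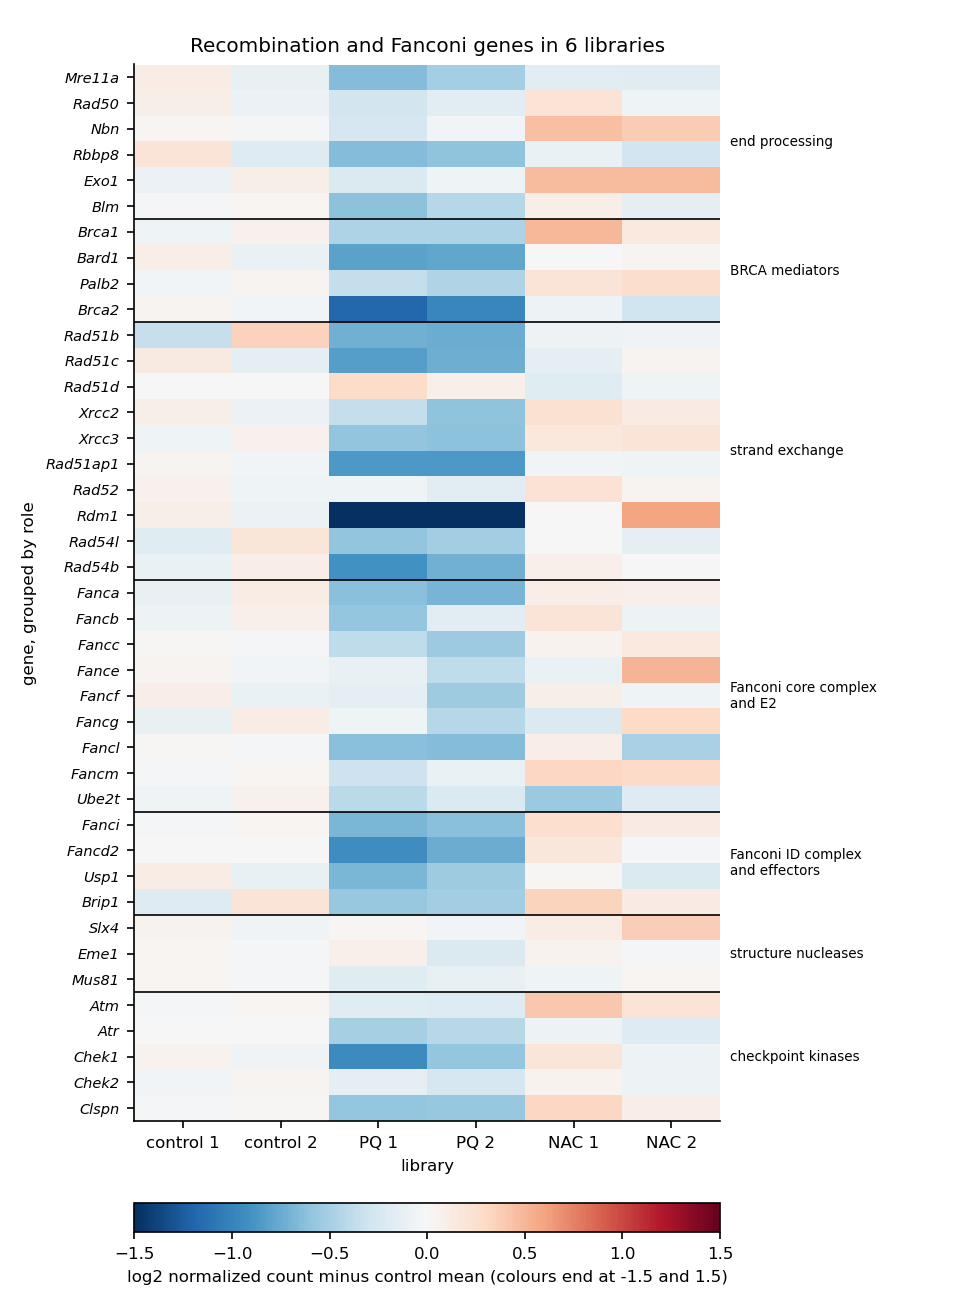
Each member in each library as log2 normalized count minus the control mean, ordered by role. In 36 of 41 members both PQ libraries lay below both controls.

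NAC left the set near control. 4 of 41 members were higher in NAC than in control (Exo1, Nbn, Brca1 and Atm) and 0 were lower by edgeR, beside 9.01% higher and 9.64% lower over all genes tested. At unadjusted p under 0.05, 5 were higher and 1 was lower. DESeq2 called 2 higher and 0 lower, beside 794 and 901 of all 11717 genes. Limma called 2 higher and 0 lower, beside 996 and 737. The median over members was 0.06, beside -0.0018 over all genes. These 4 calls leaned on single libraries. Without NAC 1 the count was 0, without control 1 it was 1, without PQ 1 or PQ 2 it was 2, and without control 2 it was 5, when Rbbp8 was also called lower. With the labelled protocol as a block, none of the 4 passed. Their differences within the protocol that NAC shares with control 2, as NAC mean minus control 2, were 0.39 for Exo1, 0.44 for Nbn, 0.25 for Brca1 and 0.28 for Atm, beside 0.47, 0.42, 0.33 and 0.31 in the fit over all libraries, so each stayed positive where the labelled protocol was the same.

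Set directly against NAC, PQ was lower in 28 of 41 members and higher in 0 by edgeR, beside 15.7% and 16.0% of all genes tested. At unadjusted p under 0.05 the counts were 32 lower and 1 higher, the latter Rad51d. DESeq2 called 24 lower and 0 higher, beside 1429 and 1515 of all 11717 genes. Limma called 26 lower and 0 higher, beside 1645 and 1531. The median was -0.51, beside 0.00036 over all genes, and both PQ libraries lay below both NAC libraries in 37 of 41 members, beside 33.3% of all genes. Each pair of these comparisons shares libraries, so their values are set side by side below and are not counted as separate evidence. By call, 19 members were lower in PQ than in both other groups without a call between NAC and control, and Brca1 was in addition higher in NAC than in control. Rad51b and Fancl were called only against control, 5 members only against NAC (Rad50, Palb2, Xrcc2, Fancc and Fancm), and Nbn, Exo1 and Atm between NAC and each other group. The remaining 11 passed in no comparison of the main fit (edgeR, all 6 libraries, mean FPKM of at least 1): Rad51d, Rad52, Fancb, Fance, Fancf, Fancg, Ube2t, Slx4, Eme1, Mus81 and Chek2. Other fits on full libraries added some calls. Fance, Fancl and Rad51b were lower in PQ than in NAC with no filter and with only the 4 libraries compared. Fance also passed there with the protocol block, and Fancb with no filter. Xrcc2 was lower in PQ than in control with no filter.

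**Figure D2:**
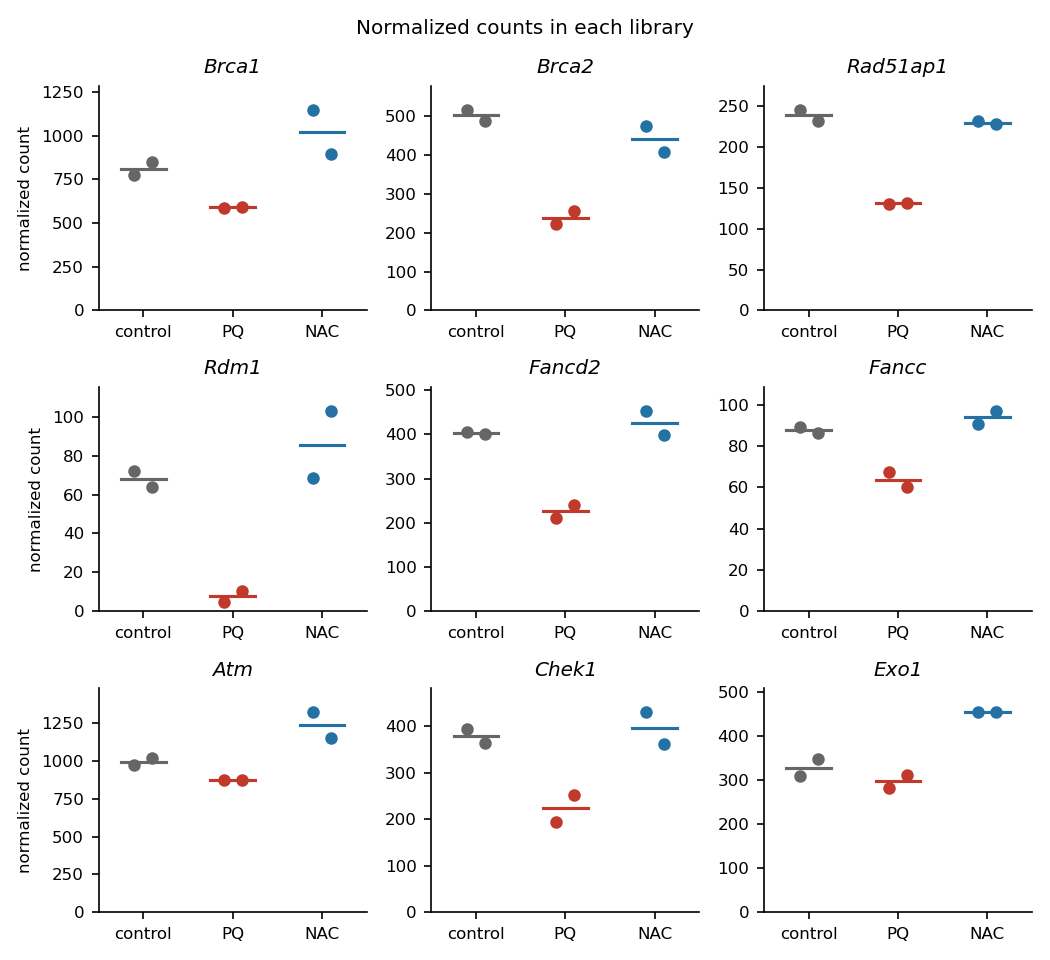
Normalized counts in every library for Brca1, Brca2, Rad51ap1, Rdm1, Fancd2, Fancc, Atm, Chek1 and Exo1. Points are single libraries and bars are group means.

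Among the 6 end-processing genes, 3 were lower in PQ than in control (Mre11a, Rbbp8 and Blm) and all 6 were lower than in NAC, with medians of -0.37 and -0.47. For this and the role lists below, the shares over all genes tested were 9.45% lower than control and 15.7% lower than NAC. Rbbp8 encodes CtIP, which starts resection with the MRE11 complex. It had normalized counts of 1109 and 848 in control, 620.0 and 636 in PQ and 905 and 794 in NAC. PQ lay below every other library and the NAC values fell between the PQ and control ranges or inside control. Rbbp8 fell in PQ, at log2 -0.64 (SE 0.12, adjusted p = 0.0010) against control and -0.44 (SE 0.12, adjusted p = 0.0096) against NAC, and NAC against control was -0.20 (adjusted p = 0.26). Mre11a, the nuclease of that complex, had 460.0 and 393 in control, 271 and 299 in PQ and 379 and 374 in NAC. All PQ values were again the lowest, with NAC below both controls. PQ was lower than control at -0.58 (SE 0.12, adjusted p = 0.0024) and than NAC at -0.40 (SE 0.12, adjusted p = 0.018), while NAC against control gave -0.18 (adjusted p = 0.33). Without PQ 1, Mre11a and the helicase Blm no longer passed against control, and Mre11a and Rbbp8 no longer passed against NAC. Without NAC 1 neither of the latter passed against NAC, and without NAC 2 Mre11a did not.

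Exo1, the 5' to 3' exonuclease of long-range resection, behaved in another way. Its counts were 310.2 and 348 in control, 284 and 313 in PQ and 455 and 455 in NAC. NAC was clear of all 4 other libraries, while PQ and control overlapped. Exo1 was higher in NAC than in control at 0.47 (SE 0.12, adjusted p = 0.0078) and lower in PQ than in NAC at -0.61 (SE 0.12, adjusted p = 5.8e-04), with PQ against control at -0.14 (adjusted p = 0.46). Nbn, the signalling subunit of the MRE11 complex, had 458 and 442 in control, 378 and 437 in PQ and 614 and 585 in NAC and passed in the same places, at 0.42 (adjusted p = 0.011) for NAC against control and -0.56 (adjusted p = 7.1e-04) for PQ against NAC. The NAC against control call was lost with the labelled protocol as a block for both, without control 1, NAC 1 or NAC 2 for Exo1 and without NAC 1 for Nbn. Rad50, its coiled-coil ATPase, passed only against NAC at -0.30 (adjusted p = 0.047), a call lost in DESeq2, with the protocol block, in both limma fits and without PQ 1, PQ 2 or NAC 1. Nbn is named here after its values were seen, as are further members below whose values are given without a standard error.

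The 4 BRCA mediators all fell below NAC in PQ, and 3 of them below control, with medians of -0.80 and -0.63. Brca2 (NCBI gene 12190, chr5:151325205-151372321 on mm9), which prepares resected DNA for strand exchange, had normalized counts of 516 and 488 in control, 221 and 255 in PQ and 475 and 406 in NAC. Group means were 502 ± 19.3, 238 ± 24.3 and 441 ± 48.3, and PQ stood far below the other 4 libraries. It fell, at log2 -1.08 (SE 0.13, adjusted p = 1.0e-05) against control, or 2.11-fold, and -0.89 (SE 0.13, adjusted p = 2.7e-05) against NAC. NAC against control was -0.19 (adjusted p = 0.30). Against control, Brca2 had the next largest fall among the members after Rdm1.

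Brca1, the ubiquitin ligase that favours resection, had normalized counts of 774 and 851 in control, 589 and 591 in PQ and 1148 and 897 in NAC. The 3 groups did not overlap, with PQ lowest and NAC highest, though NAC 2 lay close to control 2. PQ against control was -0.46 (SE 0.12, adjusted p = 0.0092), NAC against control 0.33 (SE 0.11, adjusted p = 0.049) and PQ against NAC -0.79 (SE 0.12, adjusted p = 3.8e-05). The first of these did not pass in either limma fit or without PQ 1 or PQ 2, and the NAC call was lost in DESeq2, both limma fits, the block and the fit of 4 libraries, and without control 1, PQ 1, PQ 2 or NAC 1. Bard1, its obligate partner, had 333 and 291 in control, 179 and 181 in PQ and 310.3 and 319.6 in NAC. Control and NAC overlapped and PQ lay well under both. It fell, at -0.79 (SE 0.13, adjusted p = 4.1e-04) against control and -0.81 (SE 0.13, adjusted p = 1.3e-04) against NAC, with NAC against control at 0.01 (adjusted p = 0.96). Palb2, which bridges BRCA1 to BRCA2, passed only against NAC at -0.64 (adjusted p = 0.0051), beside -0.41 (adjusted p = 0.093) against control.

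Of the 10 strand exchange genes, 7 were lower in PQ than in control and 7 lower than in NAC, with medians of -0.69 and -0.70. The NAC against control median was -0.01. Rdm1, a RAD52-like DNA-binding protein (NCBI gene 66599, chr11:101488509-101497414 on mm9), had normalized counts of 72.3 and 64.1 in control, 4.81 and 10.5 in PQ and 68.2 and 103 in NAC. It was nearly absent from both PQ libraries and present in the other 4. Rdm1 fell, at log2 -3.15 (SE 0.37, adjusted p = 1.3e-05) against control, or 8.91-fold, and -3.48 (SE 0.36, adjusted p = 7.9e-07) against NAC, or 11.1-fold. NAC against control was 0.32 (adjusted p = 0.39). The deposited counts behind it were 69 and 63, 5 and 10, and 73 and 103, so the size of this fall is loosely known.

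Rad51ap1, which stimulates strand invasion, had 245 and 232 in control, 131 and 131 in PQ and 232 and 228 in NAC. NAC lay at or just under the control values, and the PQ pair lay far below. PQ was lower than control at -0.86 (SE 0.14, adjusted p = 3.7e-04) and than NAC at -0.81 (SE 0.14, adjusted p = 2.7e-04), with -0.05 (adjusted p = 0.82) for NAC against control. Rad54b, a translocase that acts during strand exchange, had 162 and 187 in control, 93.2 and 106 in PQ and 184 and 176 in NAC. Here too the groups other than PQ overlapped. PQ was -0.81 (SE 0.16, adjusted p = 0.0017) against control and -0.85 (SE 0.16, adjusted p = 4.8e-04) against NAC, and NAC against control was 0.04 (adjusted p = 0.88). Its counts were fractional in 3 libraries, as when reads are shared between genes, so its level is uncertain.

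The other strand exchange genes were uneven. Rad51c, which works in complexes with Rad51b or Xrcc3, fell in PQ, at -0.78 (adjusted p = 9.8e-04) against control and -0.73 (adjusted p = 8.4e-04) against NAC. Rad51b and Xrcc3 were called lower than control at -0.77 (adjusted p = 0.043) and -0.61 (adjusted p = 0.040), but neither passed in DESeq2 or with only the 4 libraries compared, Rad51b failed in both limma fits and Xrcc3 with the protocol block, and leaving out 1 library lost Rad51b in 5 of 6 cases and Xrcc3 in 6 of 6. Rad54l, the main RAD54 translocase, was at -0.57 (adjusted p = 0.018) and lost its call without control 2, PQ 1 or PQ 2. Its call against NAC, at -0.48 (adjusted p = 0.027), was lost in DESeq2, with the block and without PQ 1, PQ 2 or NAC 1. It shares 1184 antisense exon bases with Lrrc41, and since strand use in counting is not stated, its level is uncertain. Rad51d, with 312 and 312 in control, 379 and 328 in PQ and 275 and 299 in NAC, was the only member with both PQ libraries above both controls, at 0.18 (adjusted p = 0.35), which did not pass. Rad52, with 136 and 125 in control, 125 and 117 in PQ and 151 and 135 in NAC, stood at -0.11 (adjusted p = 0.69). Xrcc2 passed only against NAC at -0.65 (adjusted p = 0.0046), and not without PQ 2.

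Among the 9 genes of the Fanconi core complex and its E2, 2 were lower in PQ than control (Fanca and Fancl) and 3 lower than NAC (Fanca, Fancc and Fancm), with medians of -0.32 and -0.47. Over all genes tested the shares were 9.45% and 15.7%. Fanca, a core complex subunit, had normalized counts of 171 and 198 in control, 119 and 114 in PQ and 197 and 194 in NAC. PQ lay below the other 4 libraries, which overlapped. It fell, at -0.66 (SE 0.16, adjusted p = 0.0055) against control and -0.75 (SE 0.15, adjusted p = 0.0010) against NAC, with NAC against control at 0.08 (adjusted p = 0.75). Fanca shares 652 antisense exon bases with Zfp276, which makes its level uncertain. Fancl, the ubiquitin ligase of the core, had 189.7 and 185 in control, 121 and 119.8 in PQ and 201 and 134 in NAC. NAC 2 came close to the PQ pair while NAC 1 was above both controls. PQ was lower than control at -0.64 (SE 0.18, adjusted p = 0.018), which was lost in limma on log2(FPKM + 1) and without PQ 1 or PQ 2, and -0.48 (SE 0.18, adjusted p = 0.052) against NAC did not pass. Fancl overlaps Vrk2 over 462 antisense bases and is uncertain for the same reason.

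Fancc had normalized counts of 89.1 and 86.5 in control, 67.3 and 59.9 in PQ and 90.7 and 96.9 in NAC. Both PQ libraries were the lowest. Against NAC it fell, at -0.56 (SE 0.19, adjusted p = 0.034), a call lost in DESeq2, with the protocol block and without PQ 1, PQ 2, NAC 1 or NAC 2, and against control it was -0.46 (SE 0.20, adjusted p = 0.11). An antisense overlap of 185 bases with 2010111I01Rik applies here too. Fancm, the translocase that brings the core to DNA, had 290.3 and 304 in control, 240.3 and 278 in PQ and 368 and 363 in NAC and passed against NAC at -0.50 (adjusted p = 0.0047) but not without PQ 1. Ube2t, the E2 that charges the pathway, had 242 and 267 in control, 191 and 219 in PQ and 173 and 222 in NAC, so that NAC overlapped PQ below control. Its values were -0.31 (adjusted p = 0.16) for PQ against control and -0.37 (adjusted p = 0.099) for NAC against control. For Fancb, Fance, Fancf and Fancg the PQ against control values were -0.37, -0.24, -0.32 and -0.24, and none of the 4 passed.

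All 4 genes of the ID complex and its effectors were lower in PQ than in both other groups, with medians of -0.63 against control and -0.81 against NAC. Fancd2 (NCBI gene 211651, chr6:113481676-113547011 on mm9), the subunit whose ubiquitination marks a crosslink, had normalized counts of 404 and 399.8 in control, 211 and 241 in PQ and 452 and 397 in NAC. Group means were 402 ± 3.32, 226 ± 20.7 and 425 ± 38.8, and control sat inside the NAC range. Fancd2 fell, at -0.83 (SE 0.13, adjusted p = 1.6e-04) against control and -0.91 (SE 0.12, adjusted p = 1.8e-05) against NAC, and NAC against control was 0.08 (adjusted p = 0.70). Fanci, its partner, had 737 and 770.1 in control, 470.1 and 489 in PQ and 899 and 819.9 in NAC. Here NAC stood above control and PQ far below both. PQ was lower than control and NAC at -0.65 (SE 0.10, adjusted p = 2.3e-04) and -0.84 (SE 0.10, adjusted p = 4.7e-06), while 0.19 (adjusted p = 0.20) between NAC and control did not pass. Antisense exons overlap Fanci over 856 bases (Polg) and Fancd2 over 257 (4931417G12Rik), so both levels are uncertain.

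Usp1, which removes the ubiquitin from FANCD2, had normalized counts of 2954 and 2536 in control, 1706 and 1896 in PQ and 2772 and 2361 in NAC. Its log2 fold changes were -0.61 (adjusted p = 5.8e-04) against control and -0.51 (adjusted p = 0.0012) against NAC. The gene that closes the ID reaction therefore fell together with its substrates. Brip1, the helicase FANCJ, had 369.9 and 486 in control, 286 and 294 in PQ and 534 and 461 in NAC. Control and NAC overlapped, and PQ was under both. It fell against control and NAC, at -0.56 (SE 0.14, adjusted p = 0.0067) and -0.78 (SE 0.13, adjusted p = 2.0e-04), with NAC against control at 0.22 (adjusted p = 0.27). The call against control was lost in both limma fits and without control 2 or PQ 1. Brip1 counts were fractional in all 6 libraries, as were those of Bard1, Atm and Chek1, which leaves their exact levels uncertain. The same holds for Rad51d, Xrcc3, Xrcc2, Fancm and Chek2, with fractional counts in 1 library or more, and for Xrcc3, Fancf, Eme1 and Atr, with antisense exons of other genes.

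The 3 structure-selective nuclease genes passed in no comparison. Slx4, the scaffold that gathers the nucleases, had normalized counts of 335 and 311 in control, 326 and 314 in PQ and 349 and 417 in NAC, with PQ inside the control range. Its values were -0.01 (adjusted p = 0.96) for PQ against control and -0.26 (adjusted p = 0.12) against NAC. Mus81 and its partner Eme1 were at -0.14 (adjusted p = 0.51) and -0.06 (adjusted p = 0.81) against control. Medians of the 3 were -0.06 against control, -0.13 against NAC and 0.01 between NAC and control. Whether they differ from the other members in their response was not tested.

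**Figure D3:**
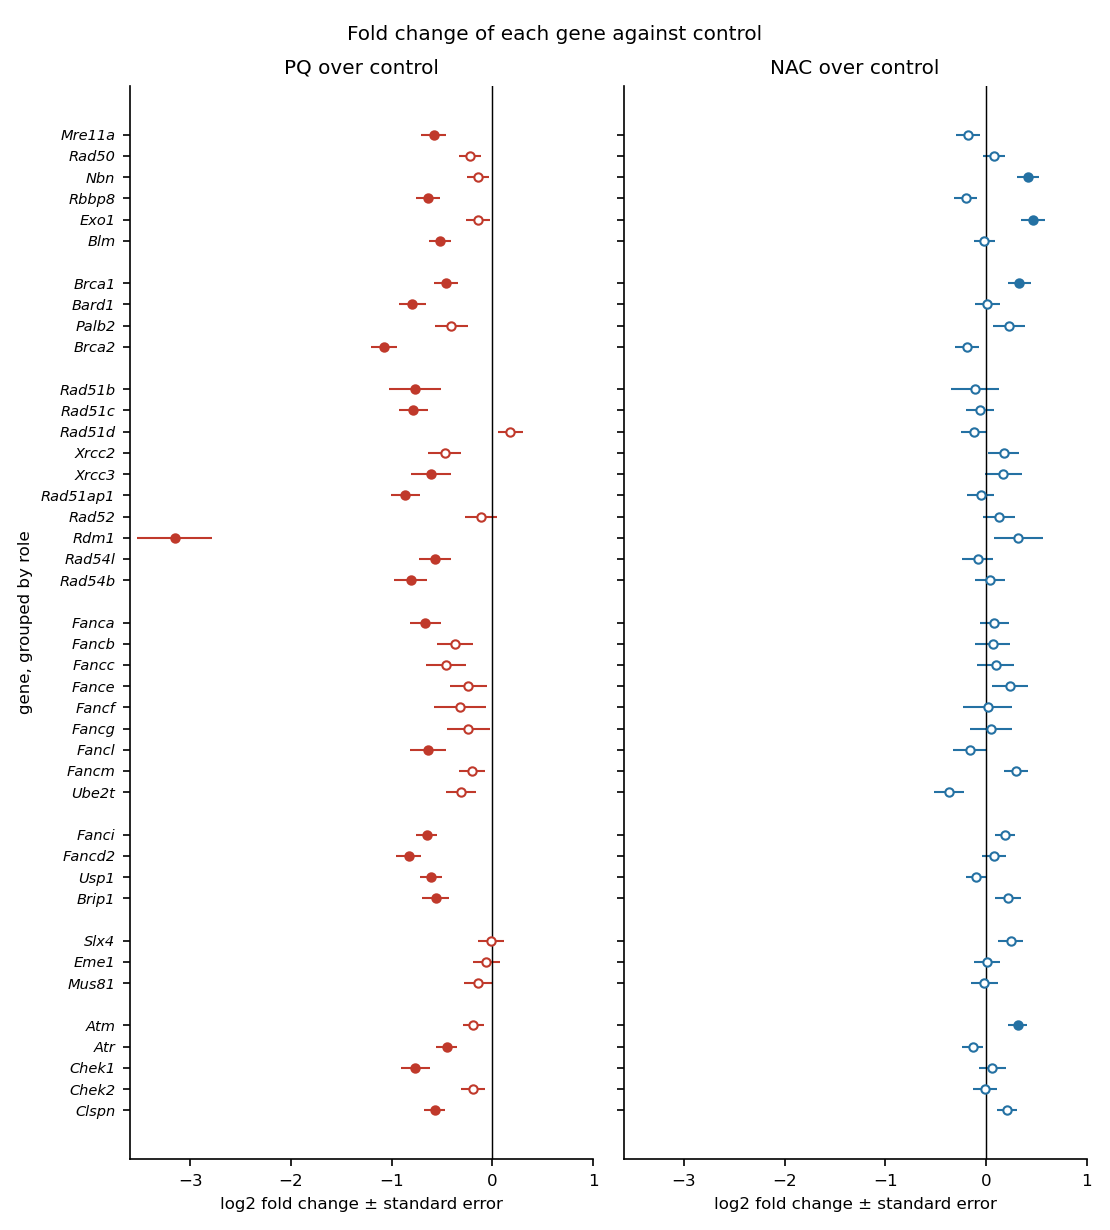
Log2 fold changes with standard errors for all 41 members, PQ against control and NAC against control, ordered by role. Filled marks passed at adjusted p under 0.05.

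Of the 5 checkpoint genes 3 were lower in PQ than in control (Atr, Chek1 and Clspn) and 4 lower than in NAC, with medians of -0.46 and -0.50. Chek1, the kinase that holds forks and mitotic entry, had normalized counts of 395 and 365 in control, 195 and 253 in PQ and 431 and 362 in NAC. The PQ pair was the lowest, and control and NAC overlapped. Chek1 fell, at -0.76 (SE 0.14, adjusted p = 9.1e-04) against control and -0.83 (SE 0.14, adjusted p = 1.9e-04) against NAC, with 0.06 (adjusted p = 0.80) between NAC and control. Clspn, the adaptor through which ATR activates CHK1, had 959.9 and 982 in control, 651 and 654 in PQ and 1202 and 1037 in NAC. PQ was again at the bottom and NAC at the top. It fell against control and NAC, at -0.57 (SE 0.10, adjusted p = 6.6e-04) and -0.78 (SE 0.10, adjusted p = 1.1e-05), and NAC against control was 0.21 (adjusted p = 0.17). Atr itself fell, at -0.46 (adjusted p = 0.0056) against control, a call lost without PQ 1. Against NAC it was -0.32 (adjusted p = 0.028), which was lost in DESeq2, with the protocol block, in both limma fits and without PQ 1, PQ 2, NAC 1 or NAC 2.

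Atm, the kinase for double-strand breaks, had normalized counts of 971 and 1017 in control, 874 and 873 in PQ and 1321 and 1149.5 in NAC. Means were 994 ± 32.4, 873 ± 0.925 and 1235 ± 121, and the 3 groups were apart. Against control PQ was -0.19 (SE 0.10, adjusted p = 0.22) and NAC 0.31 (SE 0.10, adjusted p = 0.033), and PQ against NAC was -0.50 (SE 0.10, adjusted p = 7.6e-04). Only the last held in every fit, since the NAC call failed in DESeq2, both limma fits, the block and the fit of 4 libraries, and without control 1, PQ 1, PQ 2 or NAC 1. Chek2, which ATM activates, had 351 and 371 in control, 329 and 304 in PQ and 374 and 343 in NAC, with -0.19 (adjusted p = 0.29) for PQ against control and -0.01 (adjusted p = 0.96) for NAC.

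Lists outside the members place these falls. A further 58 genes of recombination, the Fanconi pathway and checkpoints, of which 57 were tested and the meiotic Dmc1 had at most 3 counts, held 16 lower in PQ than in control, with a median of -0.23. Over all genes tested, 9.45% were lower in PQ than in control. Against NAC 23 were lower and 1 was higher, beside 15.7% and 16.0% of all genes tested. Between NAC and control 4 were higher and 2 lower, beside 9.01% and 9.64%. Among the members' nearest partners, Timeless had normalized counts of 496 and 462 in control, 257 and 283 in PQ and 659 and 606 in NAC and Gen1 201 and 164 in control, 122 and 105 in PQ and 219 and 208 in NAC. Both were lowest in PQ. Timeless, a fork protection factor, was at -0.83 (SE 0.12, adjusted p = 8.2e-05) against control and 0.40 (adjusted p = 0.013) for NAC, and Gen1, a resolvase, at -0.68 (SE 0.16, adjusted p = 0.0067) against control. Rpa2, which coats resected DNA, had 232 and 288 in control, 197 and 243 in PQ and 389.8 and 410.5 in NAC, with NAC above the other 4. It was higher in NAC than in control at 0.62 (SE 0.14, adjusted p = 0.0034), lower in PQ than in NAC at -0.87 (adjusted p = 1.2e-04), and -0.24 (adjusted p = 0.27) between PQ and control.

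End joining, the rival route, held 4 lower in PQ than in control among 18 tested of 19 listed, with a median of -0.18, and 3 lower than in NAC, with a median of -0.10. Shld3 was in no table. Between NAC and control 2 were lower. Over all genes tested, 9.45% were lower in PQ than in control and 15.7% lower in PQ than in NAC. NAC was lower than control in 9.64% and higher in 9.01%. Prkdc, the end-joining kinase, had normalized counts of 490.4 and 457 in control, 347 and 299 in PQ and 471 and 435 in NAC, Parp1, a break sensor, 1242 and 1566 in control, 1063 and 1058 in PQ and 1637 and 1595 in NAC, and Rif1, which blocks resection, 1688 and 1551 in control, 1008 and 1196 in PQ and 1758 and 1572 in NAC. Both PQ libraries were lowest for each. Against control they stood at -0.55 (SE 0.12, adjusted p = 0.0029), -0.40 (SE 0.11, adjusted p = 0.013) and -0.56 (SE 0.11, adjusted p = 0.0011). The 23 S and G2 markers held 21 lower in PQ than in control, with a median of -0.70, and 21 lower than in NAC, with a median of -0.81. Against control NAC had 2 of them higher and 1 lower, with a median of 0.12. Mki67 had normalized counts of 10636 and 10891 in control, 4554 and 5257 in PQ and 13771 and 11998 in NAC, the helicase subunit Mcm3 1577 and 1791 in control, 933 and 919.8 in PQ and 2066 and 1968 in NAC and its partner Mcm5 1081 and 1235 in control, 605 and 617 in PQ and 1324 and 1277 in NAC. All 3 were lowest in PQ. They fell against control, at -1.13 (SE 0.10, adjusted p = 5.7e-07), -0.86 (SE 0.10, adjusted p = 9.0e-06) and -0.92 (SE 0.10, adjusted p = 6.7e-06). The members' median of -0.47 thus lay between those of end joining and of the cell cycle markers. How much of the members' fall follows the share of cells in S and G2 was not tested.

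**Figure D4:**
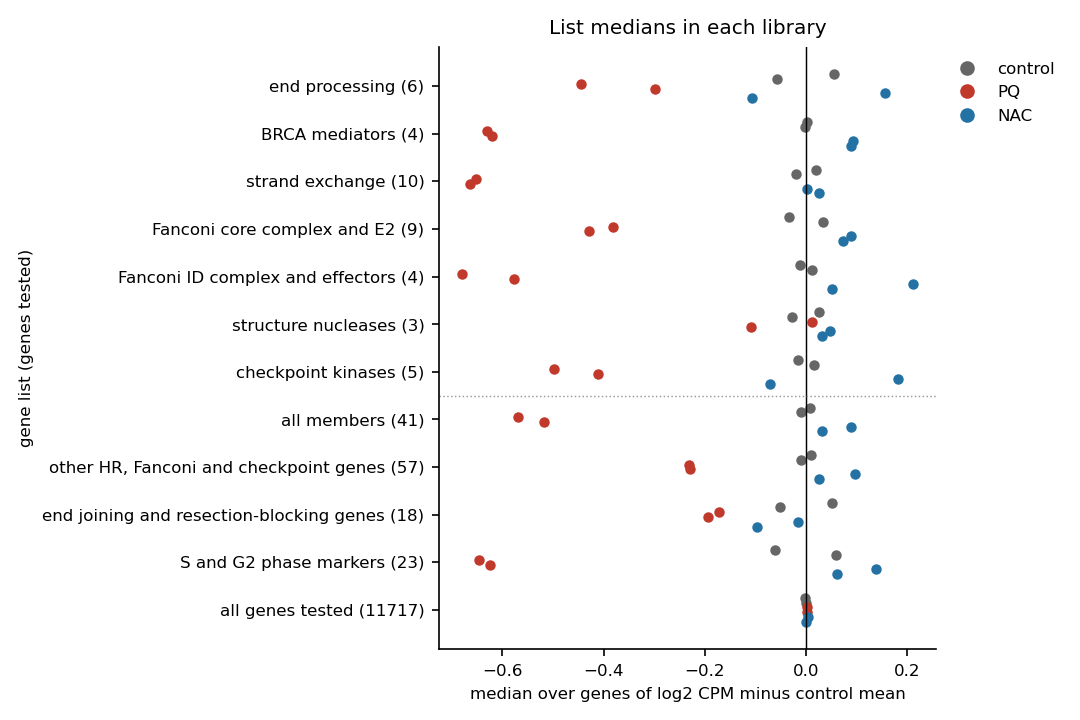
Median log2 CPM minus the control mean in each library, for the members and the comparison lists. In PQ 1 and PQ 2 the medians were -0.57 and -0.52 for the members and -0.65 and -0.62 for the S and G2 markers.

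Promoter sequence, from 250 bases before an annotated start to 50 after it, was compared for 31 of the 41 members, since the promoter table had no entry for Xrcc2, Rad50, Nbn, Fancd2, Exo1, Rad54b, Rbbp8, Rdm1, Usp1 and Rad51d. E2F-type letters (TTCCCGC or TTGGCGC or TTCGCGC or TTGCCGC, on either strand) were found in 18 of 31 (58.1%), beside 10.9% of all genes in the table and 20.6% of the tested genes in it. CCAAT was found in 20 of 31 (64.5%), beside 41.1% and 43.8%. CHR-type letters (TTTGAA or TTTAAA) were found in 5 of 31 (16.1%), beside 30.6% and 22.1%. Split by call, E2F-type letters were in 10 of the 17 members lower in PQ than in control and in 8 of the 14 others, a similar share of each. CCAAT was in 10 of 17 and 10 of 14. The 6 windows below, from 150 bases before the start to 20 after it, are shown because they show these letters in genes that were lower in PQ than in control (Brip1 and Rad51ap1 with both kinds, Fanca and Xrcc3 with CCAAT alone) and in genes that did not pass there (Fancm and Ube2t, with both). They were picked after the values were seen. Capitals mark E2F-type letters and CCAAT on either strand, and GCGCCAA, which is the reverse complement of TTGGCGC, overlaps CCAAT where the letters run together. Coordinates are on GRCm38.p6 (RefSeq): Brip1 chr11:86201174-86201343 (- strand), Rad51ap1 chr6:126939568-126939737 (- strand), Fanca chr8:123318557-123318726 (- strand), Xrcc3 chr12:111813860-111814029 (- strand), Fancm chr12:65075453-65075622 (+ strand) and Ube2t chr1:134962415-134962584 (+ strand). A match of letters is a description of sequence and not a bound site.
Brip1: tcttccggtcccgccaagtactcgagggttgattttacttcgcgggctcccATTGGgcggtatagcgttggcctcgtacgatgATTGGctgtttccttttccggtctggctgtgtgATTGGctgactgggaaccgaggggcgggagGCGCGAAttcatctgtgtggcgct
Rad51ap1: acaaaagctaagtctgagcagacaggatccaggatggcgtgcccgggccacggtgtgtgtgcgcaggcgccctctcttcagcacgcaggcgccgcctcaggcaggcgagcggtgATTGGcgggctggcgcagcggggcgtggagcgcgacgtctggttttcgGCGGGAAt
Fanca: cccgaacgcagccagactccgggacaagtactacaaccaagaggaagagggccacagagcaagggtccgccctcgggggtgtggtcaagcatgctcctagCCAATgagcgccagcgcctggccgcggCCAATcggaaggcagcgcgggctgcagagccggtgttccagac
Xrcc3: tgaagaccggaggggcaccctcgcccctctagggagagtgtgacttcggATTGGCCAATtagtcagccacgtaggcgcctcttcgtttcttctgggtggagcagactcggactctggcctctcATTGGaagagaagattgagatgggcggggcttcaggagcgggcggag
Fancm: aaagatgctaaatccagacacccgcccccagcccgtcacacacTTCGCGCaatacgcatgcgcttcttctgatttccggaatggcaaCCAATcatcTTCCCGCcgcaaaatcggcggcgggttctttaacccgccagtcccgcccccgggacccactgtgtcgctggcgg
Ube2t: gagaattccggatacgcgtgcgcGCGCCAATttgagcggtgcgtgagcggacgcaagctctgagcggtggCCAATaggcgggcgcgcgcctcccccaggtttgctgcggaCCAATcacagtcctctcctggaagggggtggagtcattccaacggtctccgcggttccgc

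**Figure D5:**
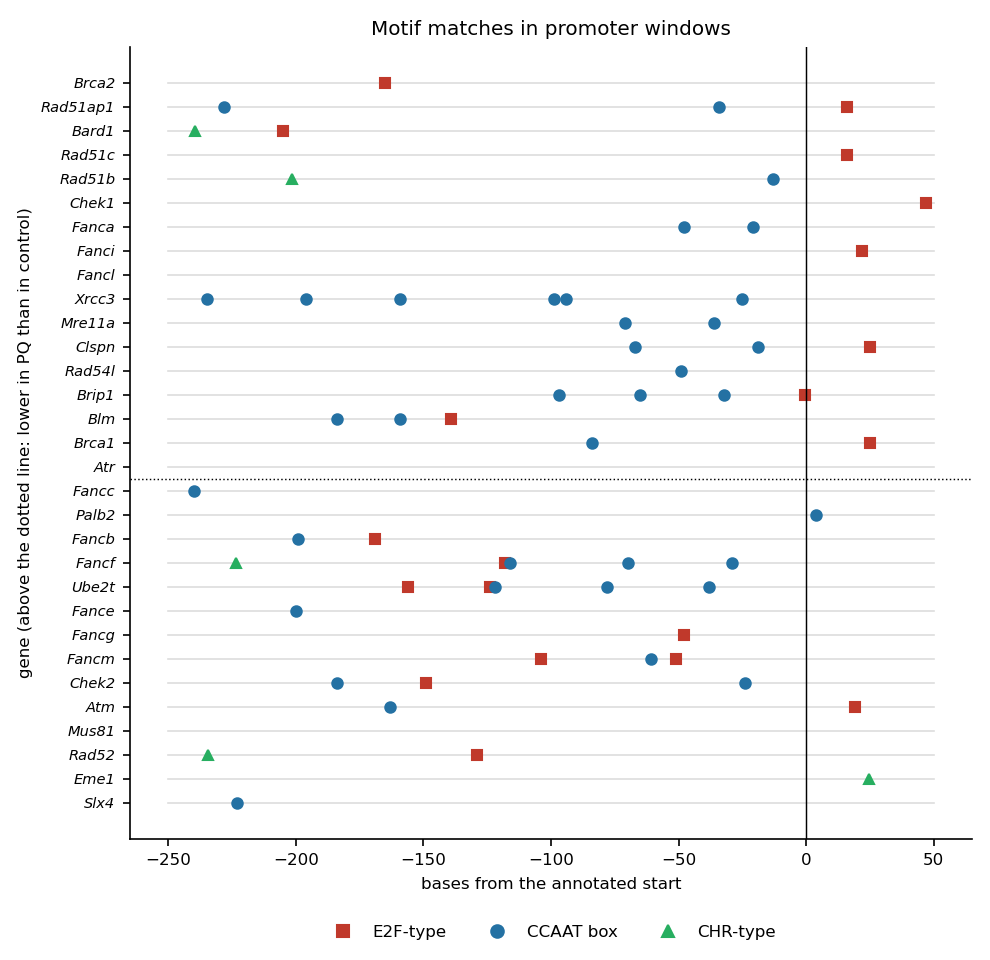
Positions of E2F-type, CCAAT and CHR-type letters in the promoter windows of members, 1 window per gene. Genes are grouped by the PQ against control call.

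Over all genes tested, 9.45% were lower in PQ than in control. The members lower there were 3 of 6 end-processing genes, 3 of 4 BRCA mediators and 7 of 10 strand exchange genes. The rest were 2 of 9 Fanconi core genes, 4 of 4 ID complex genes and 3 of 5 checkpoint genes. Of these 22 calls, 17 held in every fit on full libraries in which the gene was tested. Fewer held with each library left out in turn. Slx4, Mus81, Eme1, Rad52 and Rad51d were among the 11 members that passed in no comparison of the main fit. The NAC differences were few and none held in every fit. Protein levels, repair activity and cell cycle phase were not measured in these libraries.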

How the data were processed

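Per the labels and the submitters' processing notes, reads of control 1 and PQ 1 were trimmed with cutadapt, aligned to mm9 with TopHat2 2.0.11 and assembled with Cufflinks 2.1.1, and reads of the other 4 libraries were aligned to mm10 with HISAT2 2.0.4 and Bowtie2 2.2.5 and counted with RSEM. The deposited tables give an expected count per gene, which the authors estimated from aligned reads, and FPKM, which the authors scaled by length and depth before deposit. All 6 tables had the same columns and the same transcripts per gene, and which tool made them, and whether counting used strand, is not stated, though the study's methods name a stranded mRNA library kit. NCBI gene IDs were mapped to symbols with RefSeq, for 17199 of 17254 genes (99.7%). A gene missing from a table was taken as 0.

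Expected counts were rounded and tested in R 4.3.3 with edgeR 4.0.16 (TMM scaling, quasi-likelihood F test, two-sided, 1 term per group, all 6 libraries). Genes with mean FPKM of at least 1 were tested, and p was adjusted by Benjamini-Hochberg over all 11717. A call is an adjusted p under 0.05. SE is the log2 fold change over the root of F, and normalized counts are scaled to the mean effective library size. No pairing or block was used, since the differences control 1 minus control 2 and PQ 1 minus PQ 2 had r = -0.04 over genes. Alternatives were DESeq2 1.42.0, its size factors, no filter, mean FPKM of at least 5, only the 4 libraries compared, the labelled protocol as a block, limma 3.58.1 on log2(FPKM + 1) and on log2(FPKM + 0.1), and each library left out. The fits were tested on simulated data.

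The members and lists were chosen with earlier results of these data known. Values in every library were printed for up to 3 members of each role list with the largest absolute log2 fold change among those called in any comparison, for Brca1, Brca2, Fancd2, Atm and Chek1, for up to 3 genes of each comparison list with the largest absolute log2 fold change among those called in PQ against NAC, and for further genes picked after their values were seen. Comparison lists were other recombination, Fanconi and checkpoint genes, end joining, S and G2 markers and the cell type markers. Values of 1 comparison gene are not reported here. Gene coordinates and exon overlaps are from GENCODE vM1 on mm9, where Rad54b was not found by name. Promoter windows are from RefSeq on GRCm38.p6.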

Additional observations from a re-analysis of the deposited data

How the results depend on the processing

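No alternative reversed the direction of a count or a median. The 22 members lower in PQ than in control became 15 to 23 in the other fits, with 15 where mean FPKM of at least 5 left 26 members tested, and 13 to 21 with 1 library left out (13 without PQ 1). Their median moved to -0.40 with limma on log2(FPKM + 1) and ran from -0.58 to -0.41 with 1 library left out. The count of members higher in PQ stayed at 0 in every fit.

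The 4 members higher in NAC than in control were the weakest result. DESeq2 gave 2, the labelled protocol as a block 0, limma on log2(FPKM + 1) 2, limma on log2(FPKM + 0.1) 2, and only the 4 libraries compared 2, and leaving out 1 library gave 0 (without NAC 1) to 5 (without control 2). The count lower in NAC was 0 to 1 with 1 library left out. The NAC median was 0.11 with limma on log2(FPKM + 0.1).

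The 28 members lower in PQ than in NAC became 18 of 26 tested at mean FPKM of at least 5, where fewer members were tested, 32 with no filter and 31 with only the 4 libraries compared, and 21 to 31 with 1 library left out. Their median was -0.55 with limma on log2(FPKM + 0.1) and ran from -0.60 to -0.51 with 1 library left out. Calls lost in none of the fits on full libraries in which the gene was tested numbered 17 of 22, 0 of 4 and 24 of 28, though the filter at mean FPKM of at least 5 left some of these genes, Brca2, Bard1 and Fanca among them, untested. For single genes, fits on full libraries made 16 values weaker and 1 stronger in PQ against control, 12 and 1 in NAC against control, and 14 and 11 in PQ against NAC, while 375, 379 and 367 stayed the same. With 1 library left out these were 30 and 1, 14 and 4, and 23 and 11. The cause of these shifts was not tested.

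With 2 libraries a group, small differences do not pass, and a member without a call is not shown to be unchanged. Near 10 counts, as for Rdm1 in PQ, depth limits the size of a fold change. Both NAC libraries carry 1 labelled protocol, and only control 2 allows a comparison with control inside it. Counts of genes with antisense overlap or shared reads are uncertain. Bulk RNA does not separate cell numbers, cell cycle phase and RNA per cell, and neither protein nor repair was measured.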
